A study of Mus musculus with 19 samples.

Results

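The genes described here are the calcitonin gene-related peptides and their relatives, urocortin 2, and the receptors and receptor partners through which they act: Calca, Calcb, Adm, Adm2, Ucn2, Calcrl, Ramp1, Ramp2, Ramp3 and Crhr2. They are 10 of the 24343 gene symbols in the tables, taken by symbol, and all 10 were present. They were chosen by their FPKM (a read density, explained below) over the groups of these same samples, so their levels and their differences between genotypes are given as descriptions and carry no test of their own. RNA had been sequenced from 3 cell populations, basal, luminal and stromal, sorted by flow cytometry from anterior prostates of mice. Lgr5-DTR-eGFP mice, which carry a diphtheria toxin receptor and a green fluorescent protein at the Lgr5 gene and were treated with diphtheria toxin (DT), gave 3 basal, 3 luminal and 4 stromal libraries. Wild type control mice gave 3 libraries of each population, for 19 libraries in 6 groups. The toxin kills any cell that expresses Lgr5, in the prostate or elsewhere, and the question put by the series is what changes in the 3 populations once Lgr5-positive stromal cells have been ablated.

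The C57BL/6 mice were bought from a commercial breeder and the Lgr5-DTR-eGFP mice came from an academic laboratory. The labels give no background strain for the Lgr5-DTR-eGFP mice and do not say whether the wild type mice received toxin. Genotype, toxin and origin of the mice therefore cannot be told apart. The labels give no ages. They also leave unsaid whether each library of a group had its own animal, and the p-values then measure only a spread between libraries that may be technical. In bulk libraries such as these, fewer cells of a type and less RNA per cell cannot be told apart.

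Calca, Calcb, Adm and Adm2 encode peptides of the calcitonin family. By alternative splicing the Calca transcript yields either calcitonin, a hormone of calcium balance, or alpha-CGRP, a vasodilator and neuropeptide of sensory nerves, and Calcb encodes the closely similar beta-CGRP. CGRP and the adrenomedullins share a receptor core, the calcitonin receptor-like receptor encoded by Calcrl, which becomes a CGRP receptor when joined to RAMP1 and an adrenomedullin receptor when joined to RAMP2 or RAMP3. Urocortin 2, encoded by Ucn2, belongs to the corticotropin-releasing factor family and binds the receptor encoded by Crhr2. These receptors act mainly by raising cyclic AMP (cAMP), which activates protein kinase A. In the prostate, calcitonin-family peptides are known from neuroendocrine cells and nerve fibres, and adrenomedullin is known above all for its action on blood and lymph vessels.

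The sequences coding for the mature alpha-CGRP and beta-CGRP peptides are shown because Calca and Calcb are close copies whose sequencing reads could be misassigned, and because the levels of both genes differed between genotypes. Both genes lie on mouse chromosome 7 (mm10), Calca at chr7:114631478-114636357 on the minus strand and Calcb at chr7:114718643-114723365 on the plus strand, 82.3 kb apart. The stretches below are exonic and coding, in exon 4 of 5 of each transcript in the GENCODE annotation of the same build (GRCm38), at chr7:114632470-114632580 for Calca and at chr7:114721994-114722104 for Calcb, and capitals mark the bases that differ.
Calca, alpha-CGRP: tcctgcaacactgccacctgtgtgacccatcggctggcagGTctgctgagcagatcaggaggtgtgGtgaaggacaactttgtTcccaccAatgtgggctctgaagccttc
Calcb, beta-CGRP: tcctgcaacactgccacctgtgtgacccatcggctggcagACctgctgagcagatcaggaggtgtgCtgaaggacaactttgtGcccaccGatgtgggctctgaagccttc
Of the 111 bases, 5 differ, which is an identity of 95.5%, and the longest run without a difference is 40 bases. Over the whole transcripts, Calcb shares a run of up to 60 bases with the CGRP form of Calca and of up to 13 bases with the calcitonin form. A low value of Calca or Calcb beside a high level of the other gene is therefore uncertain.

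The choice between calcitonin and alpha-CGRP is made after exon 3 of Calca (chr7:114634468-114634608). The 2 junctions are shown because the balance of the 2 forms differed between cell populations. Lower case gives the last 20 bases of the shared exon 3, and capitals give the next 20 bases, which come from the calcitonin exon (chr7:114633293-114633785) or from the CGRP exon (chr7:114632416-114632599).
Calca, calcitonin junction: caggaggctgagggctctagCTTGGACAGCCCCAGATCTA
Calca, CGRP junction: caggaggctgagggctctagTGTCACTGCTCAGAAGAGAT
Ucn2 lies at chr9:108986163-108987164. The stretch that codes for the mature urocortin 2 peptide is 114 bases long (chr9:108986388-108986501, plus strand, exonic), and it is shown because Ucn2 had the largest log2 difference between genotypes among members fitted in luminal cells.
Ucn2, urocortin 2: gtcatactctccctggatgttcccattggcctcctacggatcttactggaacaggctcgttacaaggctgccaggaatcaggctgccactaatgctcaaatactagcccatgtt

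Levels are given in FPKM (fragments per kilobase of transcript, scaled to the mapped fragments of the library), summed over the transcripts of a gene. Depth on annotated transcripts was 5.26 to 9.38 gigabases per library, with 9209 to 10819 genes at 1 FPKM or more. In 7 libraries, of 5 of the 6 groups, 424 transcripts carried a low-data status and 2552 to 3112 FPKM exceeded their own upper confidence limit. In the other 12 no transcript carried that status and at most 3 FPKM exceeded their limit. Values inside and outside these 7 are given for Calcb and Adm in basal cells and for Ucn2 in luminal cells. No wild type stromal library was among the 7, so the stromal groups cannot be compared inside them. Upper limits were also exceeded by Adm, Ramp2 and Ucn2 in Lgr5-DTR stromal replicate 3. The same held for Adm and Calcb in Lgr5-DTR luminal replicate 1, and for Adm and Adm2 in wild type luminal replicate 1. Summed markers of each sorted population were highest in the libraries of that population, but the basal libraries also held 4843 to 8222 FPKM of the 10 luminal markers, against 17809 to 29549 in luminal libraries. The other members lie at chr7:110627669-110629819 (Adm), chr15:89322899-89324730 (Adm2), chr2:84330627-84425266 (Calcrl), chr1:91179822-91225196 (Ramp1), chr11:101246334-101248250 (Ramp2) and chr6:55090049-55133016 (Crhr2), and none of these 6 overlaps another gene of the tables. No member transcript carried a failed, capped or low-data status.

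Among the ligands, Calcb showed the widest difference in the family. In basal cells it stood at 86.0, 283 and 207 FPKM in the 3 Lgr5-DTR libraries and at 7.04, 0.249 and 0.722 FPKM in the 3 wild type libraries. The Lgr5-DTR libraries were all above the wild type ones, and the lowest of them was also above every luminal and stromal library. The means were 192 ± 99.2 FPKM and 2.67 ± 3.79 FPKM (SD, n = 3 each), a ratio of 71.9 and a difference of 6.06 (SE 0.69) on the log2(FPKM + 1) scale. In both Lgr5-DTR basal libraries among the 7, Calcb exceeded its own upper limit, with deposited intervals of 57.7 to 65.3 and 140.0 to 151 FPKM, and in the other its interval was 275.6 to 289.6 FPKM. Even the lower limits stood above the highest upper limit of the wild type basal libraries, 8.21 FPKM. The separation was present inside the 7 libraries, at 86.0 to 207 against 0.249 FPKM, and outside them, at 283 against 0.722 to 7.04 FPKM.

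In the other populations Calcb was low. It stood at 10.9, 0.268 and 1.30 FPKM in Lgr5-DTR luminal cells and at 0.375, 0 and 0 FPKM in wild type luminal cells, and too few luminal libraries reached 1 FPKM for a fit. The luminal library with 10.9 FPKM, Lgr5-DTR replicate 1, also had the largest summed basal markers of the 6 luminal libraries (730 FPKM, against 180 to 596 in the rest), and the part of these in the value was not tested. In stromal cells Calcb stood at 1.12, 0.780, 1.13 and 0.259 FPKM in the Lgr5-DTR libraries and at 1.15, 2.70 and 1.49 FPKM in the wild type ones. The stromal groups did not overlap, by a narrow margin, and the log2 difference was -0.60 (SE 0.28), in the direction opposite to that in basal cells.

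Markers of other cells that could carry CGRP were low in the basal libraries with high Calcb. The 9 neuroendocrine markers summed to 0.226 to 0.977 FPKM in Lgr5-DTR basal cells and to 0.242 to 1.20 FPKM in wild type basal cells, and Chga, the defining granule protein of these cells, did not exceed 0.151 FPKM in the Lgr5-DTR libraries. The 10 sensory neuron markers summed to 1.96 to 7.91 against 3.69 to 4.06 FPKM, and the part of both lists in Calcb was not tested. The 10 basal markers summed to 8104 to 9982 FPKM in Lgr5-DTR and 10727 to 13893 FPKM in wild type basal cells, and the 10 luminal markers to 6098 to 8222 against 4843 to 5706 FPKM. The summed fibroblast markers were also lower in Lgr5-DTR basal cells (314 to 638 against 733 to 883 FPKM). Nearly all of this sum was Dcn (mean 426 against 818 FPKM), and 8 or 9 of the 10 were below 1 FPKM in each basal library. The summed smooth muscle and pericyte markers were lower too (14.4 to 20.7 against 40.7 to 47.4 FPKM), mostly through Tagln (mean 7.36 against 28.8 FPKM). Endothelial markers (18.8 to 40.04 against 10.7 to 17.3 FPKM) and macrophage markers (11.8 to 16.7 against 6.93 to 10.4 FPKM) were higher. These 6 lists separated the genotypes as Calca, Calcb, Adm and Ramp3 did in basal cells, and their part in those differences was not tested. Calcb in the luminal libraries themselves did not exceed 10.9 FPKM, and the part of luminal RNA in the basal values was not tested.

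**Figure D1:**
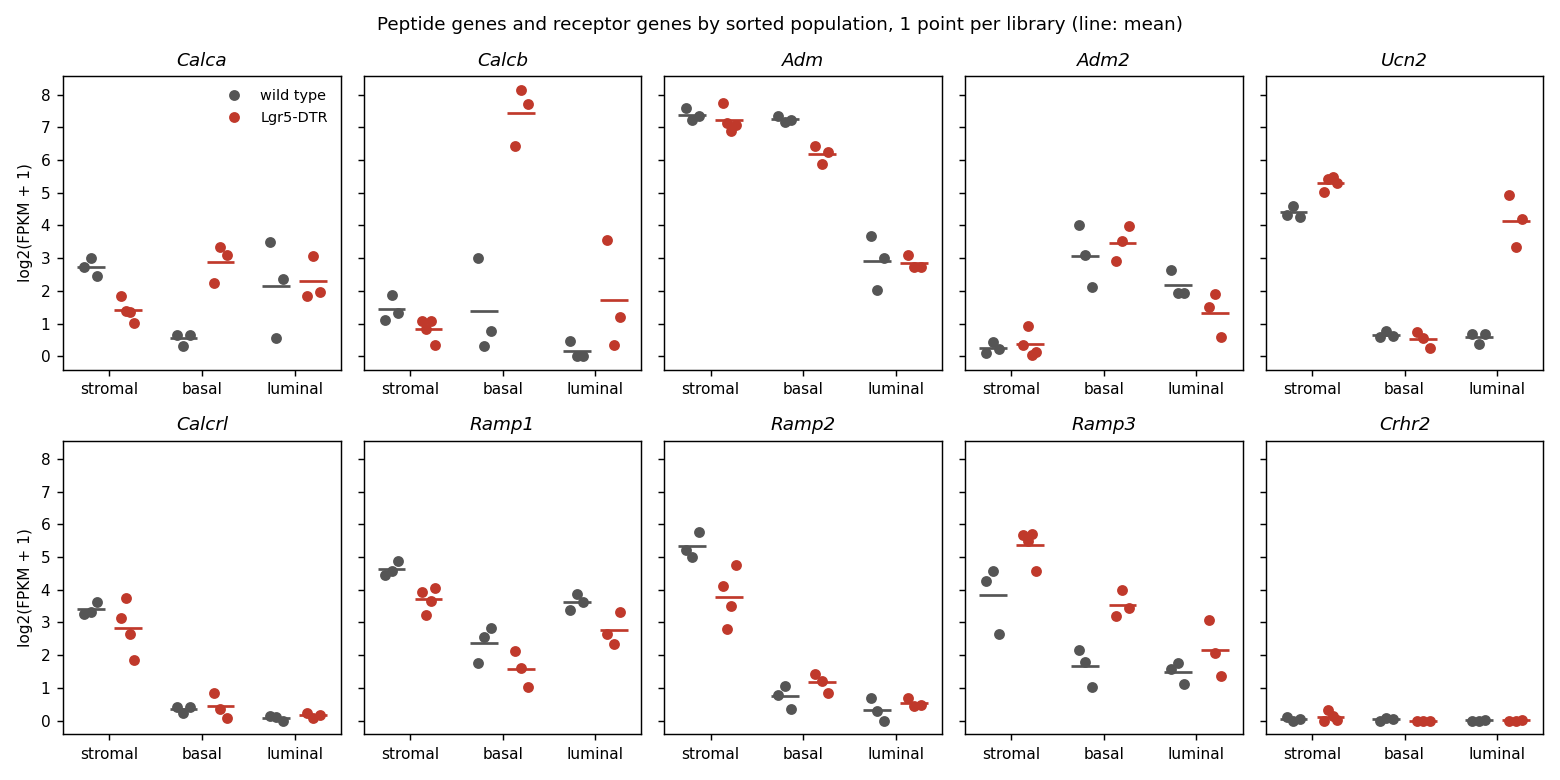
Levels of the 10 genes on the log2(FPKM + 1) scale (vertical axis) in stromal, basal and luminal cells (horizontal axis), with 1 point per library, wild type in grey, Lgr5-DTR in red and lines at the group means of the log2 values. Calcb in Lgr5-DTR basal cells (86.0 to 283 FPKM) and Ucn2 in Lgr5-DTR luminal cells (9.14 to 29.4 FPKM) stand apart from their wild type counterparts.

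Calca, on the same chromosome, was also higher in Lgr5-DTR basal cells, at a far lower level. It stood at 3.70, 9.06 and 7.48 FPKM against 0.581, 0.247 and 0.575 FPKM in wild type basal cells, with no overlap. The means were 6.75 ± 2.76 and 0.468 ± 0.191 FPKM (SD, n = 3 each), and the log2 difference was 2.34 (SE 0.29). In stromal cells the order was the opposite: 2.59, 1.61, 1.54 and 1.04 FPKM in the Lgr5-DTR libraries against 5.61, 7.05 and 4.51 FPKM in the wild type ones, again without overlap, with a log2 difference of -1.33 (SE 0.26). In luminal cells Calca varied widely within each group, at 2.57, 7.45 and 2.87 FPKM against 10.3, 0.468 and 4.18 FPKM. The luminal groups overlapped, and the log2 difference of 0.15 (SE 0.73) turned to -0.09 under quantile scaling of the libraries. From the highest mean down, Calca ran from Lgr5-DTR basal over wild type stromal, wild type luminal, Lgr5-DTR luminal and Lgr5-DTR stromal to wild type basal, and each neighbour in this order overlapped the next except the last pair.

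The deposited tables list 4 Calca transcripts, of which 2 end in the calcitonin exon and 2 in the CGRP exons. In basal cells of Lgr5-DTR mice the calcitonin-ending transcripts took 82.1 to 86.8% of the Calca FPKM, and their level was 5.74 ± 2.47 FPKM against 0.303 ± 0.213 FPKM in wild type basal cells (SD, n = 3 each). The GENCODE transcript of this form shares no run longer than 13 bases with Calcb. Calca and Calcb had the same order over the 3 Lgr5-DTR basal libraries, and misassignment of reads between them was not tested. In stromal cells the balance was the reverse, with 0 to 30.4% calcitonin-ending FPKM in Lgr5-DTR and 0 to 21.2% in wild type cells. The difference between the stromal groups lay in the CGRP-ending transcripts, at 1.80, 1.34, 1.54 and 0.811 FPKM against 5.61, 7.05 and 3.56 FPKM. Luminal cells of both genotypes held mostly the calcitonin form, 57.0 to 87.6% and 86.0 to 100%. Basal and luminal cells thus listed mainly the calcitonin form and stromal cells mainly the CGRP form, except in the wild type basal libraries, where the low total split between 23.0 and 74.0%. Cufflinks divides reads between these transcripts by estimation, and forms listed at 0 can be failed divisions.

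**Figure D2:**
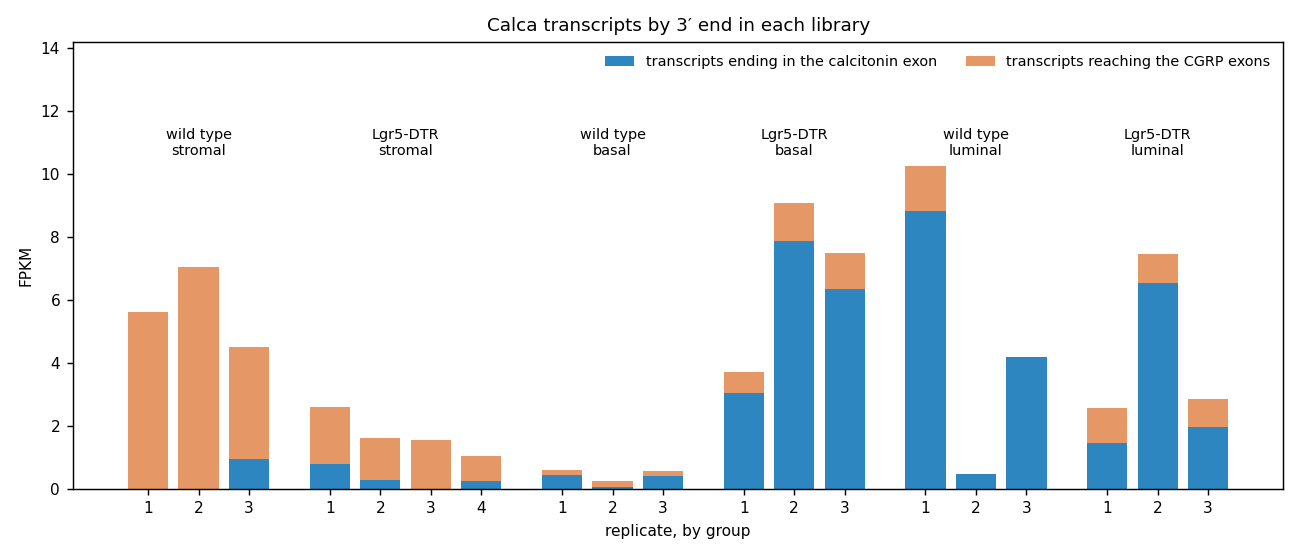
FPKM (vertical axis) of the calcitonin-ending (blue) and CGRP-ending (orange) Calca transcripts, stacked, in each library by group and replicate (horizontal axis). Calcitonin-ending transcripts make up most of the signal in Lgr5-DTR basal cells (82.1 to 86.8%), and CGRP-ending transcripts most of it in wild type stromal cells.

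Sensory fibre and neuroendocrine markers are given beside Calca because both cell types make its products. In stromal cells the sensory neuron markers summed to 54.7 to 87.2 FPKM in Lgr5-DTR and 68.7 to 99.6 FPKM in wild type libraries, which overlapped. Of the 10 markers, 4 to 6 were below 1 FPKM in each stromal library. In luminal cells the neuroendocrine markers summed to 31.4, 10.3 and 14.7 FPKM in Lgr5-DTR and 10.8, 5.95 and 13.1 FPKM in wild type libraries, and Chga to 25.3, 8.59 and 9.06 against 8.36, 4.17 and 10.7 FPKM. The wild type luminal library with the least Calca was also the one with the least Chga. Among the Lgr5-DTR luminal libraries it was the reverse: the library with the most Calca had the least Chga, and that with the least Calca had the most. The part of these markers in Calca was not tested.

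Adm, the gene for adrenomedullin, had the highest mean of the 5 ligand genes in 4 of the 6 groups, the exceptions being Lgr5-DTR basal cells (Calcb) and Lgr5-DTR luminal cells (Ucn2). In stromal cells it stood at 215, 138, 118 and 133 FPKM in Lgr5-DTR and at 191, 148 and 162 FPKM in wild type libraries. The stromal groups overlapped, with a log2 difference of -0.17 (SE 0.23). In basal cells Adm was lower in the Lgr5-DTR libraries, at 86.0, 58.3 and 74.6 FPKM against 162, 141 and 149 FPKM, without overlap. The means were 73.0 ± 13.9 and 151 ± 10.2 FPKM (SD, n = 3 each), a wild type level 2.06 times as high and a log2 difference of -1.05 (SE 0.17). Adm exceeded its own upper limit in the 3 of these libraries that are among the 7, with intervals of 65.9 to 73.1 and 56.8 to 62.9 FPKM in Lgr5-DTR and 108 to 117 FPKM in wild type cells. The order held among the 7 libraries, at 74.6 to 86.0 against 141 FPKM, and among the others, at 58.3 against 149 to 162 FPKM. Basal cells thus had less Adm and more Calca and Calcb in the Lgr5-DTR group.

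In luminal cells Adm was between 3.08 and 11.7 FPKM in all 6 libraries, and its log2 difference of -0.06 (SE 0.37) became 0.23 with the 7 libraries as a covariate. Adm2 encodes adrenomedullin 2, also called intermedin, which acts on all 3 CALCRL complexes. It was found in basal cells at 6.59, 10.5 and 14.8 FPKM in Lgr5-DTR and at 15.1, 7.62 and 3.33 FPKM in wild type libraries, which overlapped and of which those among the 7 again exceeded their upper limits (log2 difference 0.40, SE 0.46, and -0.08 without wild type replicate 3). In luminal cells Adm2 stood at 1.86, 2.75 and 0.493 FPKM against 5.26, 2.84 and 2.80 FPKM, with a log2 difference of -0.84 (SE 0.36) and no overlap, the nearest libraries being 2.75 and 2.80 FPKM. No stromal library exceeded 0.916 FPKM.

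Ucn2 was close to undetected in wild type luminal cells and present in those of Lgr5-DTR mice. It stood at 29.4, 9.14 and 17.2 FPKM in the Lgr5-DTR luminal libraries and at 0.606, 0.290 and 0.606 FPKM in the wild type ones. The groups did not overlap, and the log2 difference was 3.57 (SE 0.36), with means of 18.6 ± 10.2 and 0.501 ± 0.182 FPKM (SD, n = 3 each), a ratio of 37.1. The wild type values rest on a mean read coverage of 2.48 to 5.68 per base. Inside the 7 libraries the values were 29.4 against 0.606 and 0.606 FPKM, and outside them 9.14 to 17.2 against 0.290 FPKM. The library with 29.4 FPKM exceeded its own upper limit, with an interval of 19.5 to 23.9 FPKM. Basal libraries of both genotypes held 0.183 to 0.704 FPKM.

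Stromal cells held the highest Ucn2 of the 3 populations, at 31.7, 42.0, 43.5 and 38.3 FPKM in Lgr5-DTR and 19.1, 23.2 and 18.3 FPKM in wild type libraries. The stromal groups did not overlap, and the log2 difference was 0.91 (SE 0.21), smaller than in luminal cells. Stromal RNA in the luminal libraries was read from the 10 fibroblast markers. Their sum was 71.4 to 143 FPKM in Lgr5-DTR and 55.4 to 72.9 FPKM in wild type luminal libraries. In the Lgr5-DTR ones it was 2.19 to 4.37% of the mean sum in Lgr5-DTR stromal cells. Most of that stromal sum was Dcn, with a mean of 2417 FPKM, against 10.8 FPKM in Lgr5-DTR luminal cells. Col1a1, Col1a2 and Col3a1 had means of 32.2, 25.7 and 37.8 FPKM there, against 155, 222 and 156 FPKM in Lgr5-DTR stromal cells. In wild type luminal cells their means were 4.4, 5.3 and 15.2 FPKM. Lum, Pdgfra, Dpt, Pi16 and Thy1 did not exceed 0.309 FPKM in Lgr5-DTR luminal libraries, and Dpp4 was higher there than in stroma. Ucn2 in the Lgr5-DTR luminal libraries was 23.5 to 75.6% of its stromal mean. The 10 smooth muscle and pericyte markers were at 13.2 to 30.2% of theirs, and their part in Ucn2 was not tested. Summed markers of macrophages also separated the luminal groups, at 82.7, 21.0 and 58.9 against 12.7, 11.8 and 18.6 FPKM, as did those of Schwann cells, at 158, 76.0 and 131 against 46.4, 55.7 and 74.98 FPKM. Both lists, and the fibroblast sum (143, 71.4 and 139 FPKM), had the order of Ucn2 among the Lgr5-DTR libraries. So did the neuroendocrine, endothelial and lymphatic endothelial sums. The smooth muscle and pericyte sum (86.0, 52.0 and 119 FPKM) and the remaining sums did not, and an order of so few libraries is weak. The sum of the 10 luminal markers was lower in the Lgr5-DTR luminal libraries, at 17809 to 24410 against 26778 to 29549 FPKM. This was mostly through Pbsn (mean 8849 against 19612 FPKM). The means of Krt8 (3030 against 1670 FPKM), Krt18, Krt19 and Epcam were higher in Lgr5-DTR luminal cells, and those of the remaining luminal markers were lower. The part of these lists in the luminal differences was not tested.

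**Figure D3:**
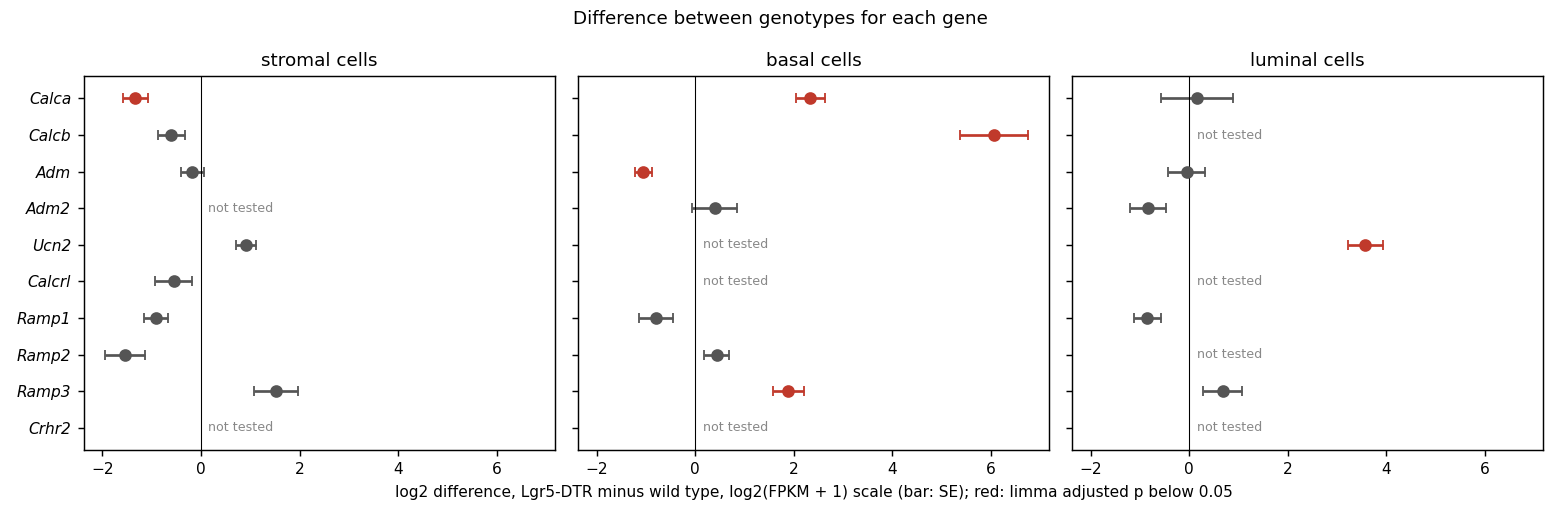
Differences between Lgr5-DTR and wild type on the log2(FPKM + 1) scale, with SE as bars, for the genes fitted in each population, red where the limma adjusted p was below 0.05. Calcb in basal cells (6.06) and Ucn2 in luminal cells (3.57) lie farthest above 0, and Ramp2 (-1.54) and Calca (-1.33) in stromal cells farthest below.

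The receptor genes were mostly stromal. Calcrl, the core of all CGRP and adrenomedullin receptors, stood at 7.73, 12.3, 5.25 and 2.65 FPKM in Lgr5-DTR stromal cells and at 8.53, 9.04 and 11.3 FPKM in wild type stromal cells. The stromal groups overlapped, with a log2 difference of -0.56 (SE 0.37). No basal or luminal library exceeded 0.795 FPKM, and every stromal library was above every basal and luminal one. The basal cells with high Calcb therefore listed almost none of the receptor core, which was found in the stroma of both genotypes.

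Ramp2, which makes CALCRL an adrenomedullin receptor, had the same stromal pattern. It stood at 16.5, 5.90, 10.3 and 26.0 FPKM in Lgr5-DTR and at 35.9, 31.3 and 53.9 FPKM in wild type stromal cells, without overlap. The log2 difference was -1.54 (SE 0.40), and wild type libraries held 2.75 times the mean level. No basal or luminal library exceeded 1.71 FPKM.

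Ramp1, which makes CALCRL a CGRP receptor, was found in all 3 populations. In stromal cells it stood at 14.3, 8.42, 11.6 and 15.6 FPKM in Lgr5-DTR and at 20.7, 22.8 and 28.7 FPKM in wild type libraries, with no overlap and a log2 difference of -0.92 (SE 0.25). In luminal cells it stood at 5.26, 4.11 and 9.00 FPKM against 9.50, 13.6 and 11.3 FPKM, also without overlap (log2 difference -0.85, SE 0.27). The basal libraries held 3.36, 2.03 and 1.04 FPKM in Lgr5-DTR and 2.38, 4.82 and 6.15 FPKM in wild type cells, which overlapped (log2 difference -0.79, SE 0.35). All 3 differences were thus below 0, and the wild type mean was 1.87 to 2.08 times the Lgr5-DTR mean. Of the 3 Ramp1 transcripts listed, NM_016894 carried all of the signal.

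Ramp3, the other adrenomedullin receptor partner, differed in the opposite direction. In basal cells it stood at 8.18, 14.9 and 9.92 FPKM in Lgr5-DTR and at 3.47, 2.44 and 1.05 FPKM in wild type libraries, without overlap and with a log2 difference of 1.89 (SE 0.31). In stromal cells it stood at 50.4, 43.8, 50.7 and 22.9 FPKM against 18.4, 23.1 and 5.21 FPKM. The stromal groups overlapped through Lgr5-DTR replicate 4 and wild type replicate 2 (log2 difference 1.53, SE 0.44). In luminal cells the values were 7.35, 3.18 and 1.60 FPKM against 2.01, 2.41 and 1.17 FPKM, which overlapped. Ramp3 (chr11:6658533-6677475) overlaps the predicted gene Gm11978 in the tables, so the division of reads between them is uncertain.

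The order of the Ramp genes within stromal cells therefore differed between genotypes. Ramp2 was the highest of the 3 in 3 of 3 wild type libraries, and Ramp3 in 3 of 4 Lgr5-DTR libraries, Ramp2 being highest in the remaining one. Endothelial cells, which are known for Calcrl and Ramp2, were weakly represented: the 12 endothelial markers summed to 16.3 to 24.8 FPKM in Lgr5-DTR stromal cells, a range that held all 3 wild type sums. Of the 12, Tek, the angiopoietin receptor, was lower in Lgr5-DTR (0.553 to 1.31 against 2.40 to 4.95 FPKM), Cdh5, the endothelial cadherin, was higher (1.79 to 2.05 against 0.724 to 1.66 FPKM), Tie1 was at most 0.259 FPKM, and the groups overlapped in the rest. The fibroblast markers summed to 2856 to 3523 FPKM in Lgr5-DTR and 5558 to 5848 FPKM in wild type stromal cells, smooth muscle and pericyte markers to 328 to 446 against 242 to 327 FPKM, and macrophage markers to 12.2 to 18.5 against 4.88 to 8.39 FPKM. These 3 lists separated the stromal groups as Calca, Calcb, Ramp1, Ramp2 and Ucn2 did, and their part in those differences was not tested.

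Crhr2, the receptor for urocortin 2, was at most 0.240 FPKM in any library and was listed at 0 in all 3 Lgr5-DTR basal libraries. Crhr1, the other receptor of the family, did not exceed 0.18 FPKM, and Calcr, the calcitonin receptor, did not exceed 0.0114 FPKM. At this depth, no receptor for urocortin 2 or calcitonin was found at 1 FPKM in any of the sorted populations, in which Ucn2 and the calcitonin form of Calca were present.

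Against a limma adjusted p of 0.05 over all genes, 8 members could be fitted in stromal cells (not Adm2 or Crhr2), 7 in basal cells (not Calcrl, Ucn2 or Crhr2) and 6 in luminal cells (not Calcb, Calcrl, Ramp2 or Crhr2). In stromal cells 1 member, Calca, passed as lower, where 1.17% of all 10689 genes passed, 0.0655% as higher and 1.10% as lower. In basal cells 3 passed as higher (Calca, Calcb and Ramp3) and 1 as lower (Adm), where 11.0% of 9755 genes passed, 6.50% as higher and 4.46% as lower. In luminal cells 1 passed as higher (Ucn2), where 3.14% of 10524 genes passed, 2.62% as higher and 0.513% as lower. The stromal groups did not overlap for 5 of the 8 members, 1 higher and 4 lower, against 11.2% of all genes (1.80% higher and 9.39% lower). The basal groups did not overlap for 4 of 7, 3 higher and 1 lower, against 31.1% of all genes (17.5% and 13.7%). The luminal groups did not overlap for 3 of 6, 1 higher and 2 lower, against 27.1% of all genes (17.4% and 9.63%). Because these contrasts chose the members, nothing is read from these shares. Of all luminal genes, 276 passed as higher and 54 as lower, a split that was 226 to 142 with TMM scaling and 144 to 73 with quantile scaling.

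Calca in basal cells and Ucn2 in luminal cells were fitted only through their 3 Lgr5-DTR libraries, since no wild type library of either reached 1 FPKM, so these genes could enter the fit only with a difference. The basal calls of Calcb, Adm and Ramp3 held under every alternative, including without each library in turn. That of Calca held without each wild type library, but Calca could not be fitted without any of the Lgr5-DTR libraries, nor at a filter of 5 FPKM. Ramp1 in basal cells passed as lower without Lgr5-DTR replicate 1 (log2 difference -1.06). In stromal cells Calca lost its call when Lgr5-DTR replicate 2 or 3, or any of the 3 wild type libraries, was left out, with log2 differences of -1.47 to -1.19 there, and in a fit over all 19 libraries, where Ramp2 passed as lower in its place. In luminal cells Ucn2 lost its call without wild type replicate 3 (log2 difference 3.63), when no luminal gene passed. Without any of the 3 Lgr5-DTR libraries Ucn2 could not be fitted, since fewer than 3 libraries then reached 1 FPKM, and without Lgr5-DTR replicate 3 Ramp1 passed as lower in its place (log2 difference -1.13).

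A list of 80 pathway genes, beside or downstream of the receptors, was made by function. It held genes for related peptides and receptors, peptide processing and degradation, cAMP production and breakdown, protein kinase A, and cAMP-induced transcription. By limma with Benjamini-Hochberg adjustment over all genes, 1 of the 55 fitted in stromal cells changed, 6 of 48 in basal cells and 2 of 48 in luminal cells. These shares of 1.82%, 12.5% and 4.17% were close to the shares of all genes, 1.17%, 11.0% and 3.14%. The median log2 difference of the pathway genes was -0.12, -0.16 and 0.32 in stromal, basal and luminal cells, against -0.09, 0.02 and 0.10 over all genes.

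In basal cells 2 cAMP-degrading phosphodiesterase genes, of the 7 fitted genes for cAMP production and breakdown, fell. Pde4b went from 263 ± 5.84 FPKM in wild type to 90.0 ± 9.21 FPKM in Lgr5-DTR cells (SD, n = 3 each), a log2 difference of -1.54 (SE 0.14) with a limma adjusted p of 0.000959. Pde3b went from 5.83 ± 1.85 to 0.984 ± 0.349 FPKM (log2 difference -1.76, SE 0.25, limma adjusted p 0.00447). Of the 16 fitted genes of the CREB family and its targets, 2 fell. Per1, a clock gene with cAMP response elements, had a log2 difference of -1.37 (SE 0.26, limma adjusted p 0.0126), and Sik1, a cAMP-induced kinase that restrains CREB coactivators, one of -0.82 (SE 0.16, limma adjusted p 0.0139). Pkig, an inhibitor of protein kinase A, fell from 7.82 to 4.33 FPKM (log2 difference -0.72, SE 0.16, limma adjusted p 0.0217). Cpe, a carboxypeptidase that trims peptide precursors, rose from 120 ± 13.1 to 231 ± 31.1 FPKM (log2 difference 0.93, SE 0.16, limma adjusted p 0.00955). Pde4b and Pde3b kept their calls without each library in turn. Per1 and Sik1 lost theirs when Lgr5-DTR replicate 2, wild type replicate 2 or wild type replicate 3 was left out (log2 differences of -1.34 to -1.19 and -0.77 to -0.74), Pkig also without Lgr5-DTR replicate 3 (-0.80 to -0.67), and Cpe without wild type replicate 3 (0.93). Without Lgr5-DTR replicate 1, 18 pathway genes passed, where 23.7% of all 9404 genes fitted passed.

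In luminal cells Cpe also rose, from 21.0 ± 9.57 to 65.4 ± 5.38 FPKM (SD, n = 3 each, log2 difference 1.67, SE 0.27, limma adjusted p 0.0164). Rgs2, a regulator of G protein signalling induced by cAMP, rose from 11.1 ± 2.17 to 26.8 ± 4.20 FPKM (log2 difference 1.21, SE 0.20, limma adjusted p 0.019). Sik1 and Dusp1, also cAMP-induced, had log2 differences of 0.85 and 0.83 that did not pass (limma adjusted p 0.0567 and 0.0577), as did Pde8a (0.91, limma adjusted p 0.119) and Prkar1a, a regulatory subunit of protein kinase A (0.47, limma adjusted p 0.131). Cpe lost its call without wild type replicate 3 (1.5), and Rgs2 without wild type replicate 2 or 3 (1.07 and 1.24). Sik1 and Dusp1 passed when Lgr5-DTR replicate 3 or wild type replicate 1 was left out.

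In stromal cells Akap12, a scaffold that anchors protein kinase A, fell from 35.4 ± 6.38 FPKM (SD, n = 3) to 15.1 ± 3.08 FPKM (SD, n = 4), a log2 difference of -1.19 (SE 0.24) with a limma adjusted p of 0.0404. This call was lost without any single library other than Lgr5-DTR replicate 4, with log2 differences of -1.34 to -1.03. Dpp4, a peptide-degrading enzyme and fibroblast marker, had a log2 difference of -0.92 (limma adjusted p 0.109). Areg, the cAMP-induced gene for amphiregulin, had one of 1.38 (limma adjusted p 0.155), Dusp1 one of -0.72 (limma adjusted p 0.19), Nr4a1 one of -0.89 (limma adjusted p 0.199) and Prkar1b one of -0.83 (limma adjusted p 0.222). None of these 5 passed.

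**Figure D4:**
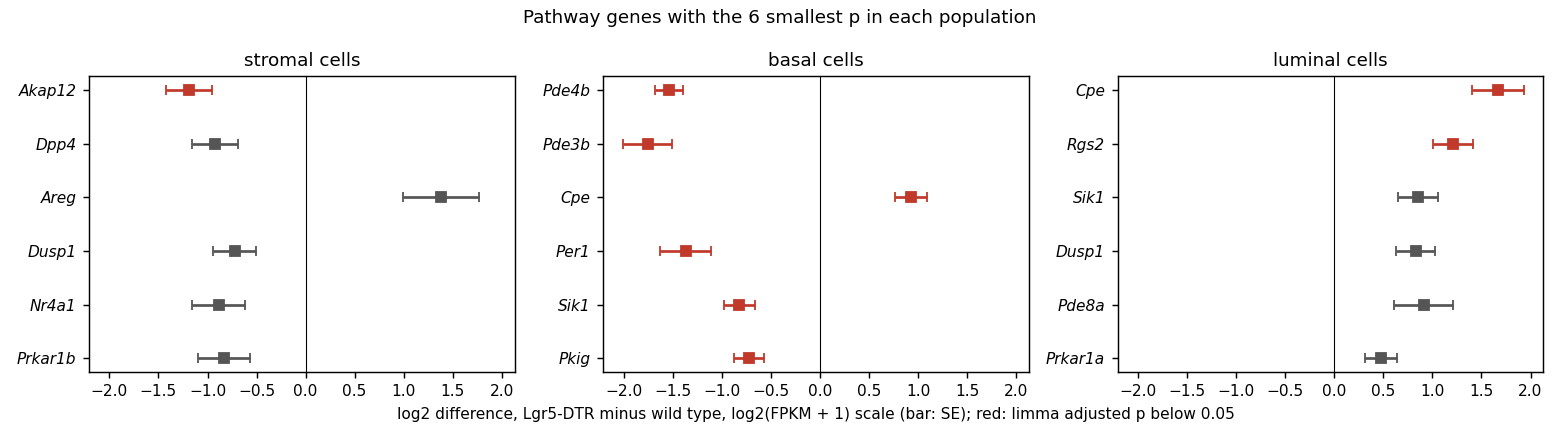
Log2 differences between Lgr5-DTR and wild type, on the log2(FPKM + 1) scale, with SE as bars, for the 6 pathway genes with the smallest p in each population, red where the limma adjusted p was below 0.05. In basal cells Pde4b (-1.54) and Pde3b (-1.76) lie farthest below 0, and in luminal cells Cpe (1.67) lies farthest above.

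The genes whose levels followed each member most closely over the 19 libraries are given as a description, by Pearson r on the log2(FPKM + 1) scale. The points are not independent, since libraries of a population share their cell type and all values of a library share its depth. Calcb was most like Cxcl3, a neutrophil chemokine (r 0.967), Tnfrsf23 (0.957), Dmkn (0.949), Cyp2b10 (0.949) and Il1a, the gene for interleukin 1 alpha (0.937). Ucn2 was most like Gbp3 (0.96), Mmp19, a metalloproteinase (0.957), Entpd2 (0.956), Col5a2, a fibrillar collagen (0.955), and Lipa (0.952). Adm followed Pltp (0.983), Smoc2 (0.982), Fjx1 (0.981) and Pqlc1 (0.979), and Adm2 followed Spryd7 (0.941), Afg3l2 (0.938), Lima1 (0.936), Ube2q2 (0.935) and Gfm1 (0.935). Among the receptor genes, Calcrl was most like Vcam1 (0.981), Thbd (0.98), Cfb (0.978), Cyp1b1 (0.975) and Col8a2 (0.973), of which Vcam1 encodes an adhesion molecule and Thbd thrombomodulin. Ramp2 was most like Figf (0.985), Ankrd29 (0.983), Adcy7 (0.981), Agrp (0.981) and Calml4 (0.975), Figf being the gene for vascular endothelial growth factor D. Ramp1 was most like Abhd14a (0.96), Cldn10 (0.952), Pid1 (0.952), Ccnd3 (0.948) and Atraid (0.948), and Ramp3 like Timp1 (0.931), Synpo (0.927), Sav1 (0.921), Spsb1 (0.909) and Antxr2 (0.908), of which Timp1 encodes an inhibitor of metalloproteinases. Calca had no match as close, with Tspan8 (0.702), Rnh1 (0.692), Wasl (0.691), Dirc2 (0.683) and Itpripl2 (0.663). The 5 genes most like Calcb and the 5 most like Ucn2 had no gene in common.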

How the data were processed

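The authors deposited FPKM per RefSeq transcript, made with TopHat2 and Cufflinks on mm10, per the submitters' processing notes, with versions not given in the sources used here. RNA had been amplified with a SMART-Seq low-input kit and libraries made by tagmentation, per the labels' protocols. The deposited coverage, a signal of mean reads per base, and the limits and status of each FPKM are used as deposited, per the file headers. Coverage gave the depth of a library (coverage times transcript length, 5.26 to 9.38 gigabases). No counts were used, so precision comes from the replicates.

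FPKM were summed per gene symbol. A gene was fitted in a population where at least 3 libraries reached 1 FPKM and no estimate was failed or capped. With limma 3.58.1 (R 4.3.3, statmod 1.5.0), using its trend and robust options, a fit compared Lgr5-DTR with wild type in each population on log2(FPKM + 1), which understates changes of low genes, with Benjamini-Hochberg adjustment at 0.05 over all genes fitted. The fit was tested on simulated data. The members, the 80 pathway genes and the marker lists were chosen with earlier results of these data known, so no p is given for a member. Named were all 10 members, the 6 pathway genes with the smallest p in each population, and, for 9 members that reached 5 FPKM in at least 3 libraries, the 5 genes with the largest r, predicted genes left out. A gene that this rule takes is not reported here. Related receptors at or near 0 and marker genes are named outside that rule. Sequences were read from GENCODE M21. Alternatives were a pseudocount of 0.1, no filter, a filter at 5 FPKM, quantile and TMM scaling (TMM without count weights), 1 fit over all 19 libraries, a replicate block, the 7 libraries with low-data status as a covariate, the highest transcript alone, and leaving out each library. Python 3.11.15, pandas 2.3.3, numpy 2.4.6, Biopython 1.88 and matplotlib 3.10.9 were used.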

Additional observations from a re-analysis of the deposited data

Results flagged for a closer look

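For 2 members every Lgr5-DTR library lay on one side of every wild type library in stromal cells and on the other side in basal cells. Calca had log2 differences of -1.33 in stromal and 2.34 in basal cells. Calcb had log2 differences of -0.60 in stromal and 6.06 in basal cells, the stromal groups being separated only by 1.13 against 1.15 FPKM. The difference between the populations was not tested. Only the 4 Lgr5-DTR stromal libraries were enough to look for a library apart from its group, by the ratio of gap to range. None of the 10 members passed this rule. With 4 libraries it marks only extreme values, so it cannot exclude a library that differs. Ramp3 stood at 22.9 FPKM in replicate 4 against 43.8 to 50.7 FPKM, and Adm at 215 FPKM in replicate 1 against 118 to 138 FPKM.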

How the results depend on the processing

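The count of 4 basal members past the threshold stayed within 1.5 times that under every alternative. In stromal cells the 1 member past it became 0 without a filter, at a filter of 5 FPKM (Calca not fitted), with quantile scaling, with the 7 libraries as a covariate and with the highest transcript alone (Calca not fitted), and 0 to 2 without single libraries, and in a fit over all 19 libraries it was Ramp2 in place of Calca. The 1 stromal pathway gene became 0 with a pseudocount of 0.1, no filter, quantile scaling, TMM scaling or the covariate, 4 in a fit over all 19 libraries, and 0 to 1 without single libraries. The 6 basal pathway genes became 2 to 18 without single libraries. In luminal cells the 1 member became 0 without a filter, when 4 genes in all passed, and 0 to 1 without single libraries. The 2 luminal pathway genes became 0 without a filter, 5 in the fit over all 19, 4 with the covariate, and 0 to 4 without single libraries. Whether the label numbers pair the libraries is not known. Deviations of same-numbered libraries from their group means had correlations of 0.376, 0.486 and -0.0457 in stromal, -0.526, -0.23 and -0.398 in basal and 0.38, -0.124 and 0.262 in luminal cells. The replicate block left out Lgr5-DTR stromal replicate 4, which has no wild type library of the same number. With it, 5 stromal members (Calca, Ramp1, Ramp2, Ramp3 and Ucn2), 9 stromal, 1 basal and 4 luminal pathway genes passed, where 10.1%, 2.18% and 7.17% of all stromal, basal and luminal genes passed. Of 559 single-gene values under alternatives, 10 reversed. Calca in luminal cells went to -0.087 with quantile scaling, -0.23 with the highest transcript alone, and -0.64 to 0.83 over all alternatives. Adm in luminal cells went to 0.23 with the covariate, 0.0058 and 0.0067 without Lgr5-DTR replicate 2 and 3, 0.33 and 0.00036 without wild type replicate 1 and 3. Without single libraries Adm2 in basal cells ran from -0.083 to 0.87 and Adm in luminal cells from -0.49 to 0.33, and Calca in luminal cells went to -0.25 without Lgr5-DTR replicate 2 and -0.64 without wild type replicate 2. Calcb in basal cells ran from 5.54 to 7.08 and Ucn2 in luminal cells from 3.38 to 4.86. Quantile scaling moved the median of all genes from -0.09 to 0.03 in stromal and from 0.10 to -0.04 in luminal cells. The cause of these changes was not tested.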
